A study of Mus musculus with 6 samples.

Results

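The genes described here are 10 that encode proteins of the eosinophil granule and its surface receptors. They are eosinophil peroxidase (Epx), the major basic proteins (Prg2, Prg3), 4 eosinophil-associated ribonucleases (Ear1, Ear2, Ear6, Ear10), the interleukin 5 receptor alpha chain (Il5ra), the eotaxin receptor (Ccr3) and the sialic acid binding receptor Siglec-F (Siglecf). They were chosen by symbol out of 47606 genes, and all 10 had a row in every library. RNA was sequenced in 6 libraries from 32D, a mouse line of myeloid progenitors grown in interleukin 3 at 1 ng/mL. In all groups the cells had dCas9-KRAB, which binds DNA without cutting it and represses nearby transcription. There were 2 libraries of cells with the empty vector (EV), 2 with guide sg2 and 2 with guide sg5, all delivered by lentivirus and selected in puromycin for a week. The series title speaks of a CEBPE enhancer, and the study's stated contrast is EV with the guides. Neither guide sequences nor target sites were given in the sources. For 1 library the labels disagree: its title says sg5, replicate 2, while other fields say sg2, and the title was followed here. The labels do not say whether replicates came from separate cultures or clones, so the p-values rest on a spread between libraries that may be technical.

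Eosinophils store their effector proteins in crystalline granules. Major basic protein forms the granule core, and peroxidase and ribonucleases lie in the matrix around it. The granules are built during late differentiation in the bone marrow, under GATA1, PU.1 and C/EBP factors, and C/EBP epsilon, the product of Cebpe, is known to be needed for the granule proteins of both neutrophils and eosinophils. Interleukin 5 drives the lineage through its receptor, eotaxins recruit the cells through CCR3, and Siglec-F is an inhibitory receptor used as a marker of mouse eosinophils.

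The values are FPKM, which scale fragments by transcript length and by depth, so levels can be compared between genes. The lowest values imply depths between 31300000 and 45000000 fragments per library. Cebpe, the gene in the title, ranged from 14.4 to 22.7 FPKM over the 4 guide libraries, below the EV values of 42.0 (replicate 1) and 100.4 FPKM (replicate 2), with an adjusted p of 1.00 in limma. The replicate number of the labels separated the libraries more than the guides did: 6089 of 12929 genes tested differed between number 2 and number 1 at an adjusted p under 0.05 in limma, and the labels do not say what the number stands for.

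Of the 10 genes, Epx was abundant, Siglecf was low, 4 (Prg2, Prg3, Il5ra, Ccr3) stayed under a mean of 1 FPKM and 4 Ear genes were listed at 0 in all 6 libraries. In EV the order of levels by mean was Epx, Siglecf, Prg2, Prg3, Il5ra and Ccr3. Epx and Siglecf stood apart from their neighbours in that order. Prg2 and Prg3 overlapped across the EV libraries, and so did Prg3 and Il5ra. Against the eosinophil label of the list, Epx was high while the receptor genes Il5ra and Ccr3 reached at most 0.232 and 0.0509 FPKM. The ribonucleases were listed at 0, which can be a failed estimate and so cannot bear on the label.

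**Figure D1:**
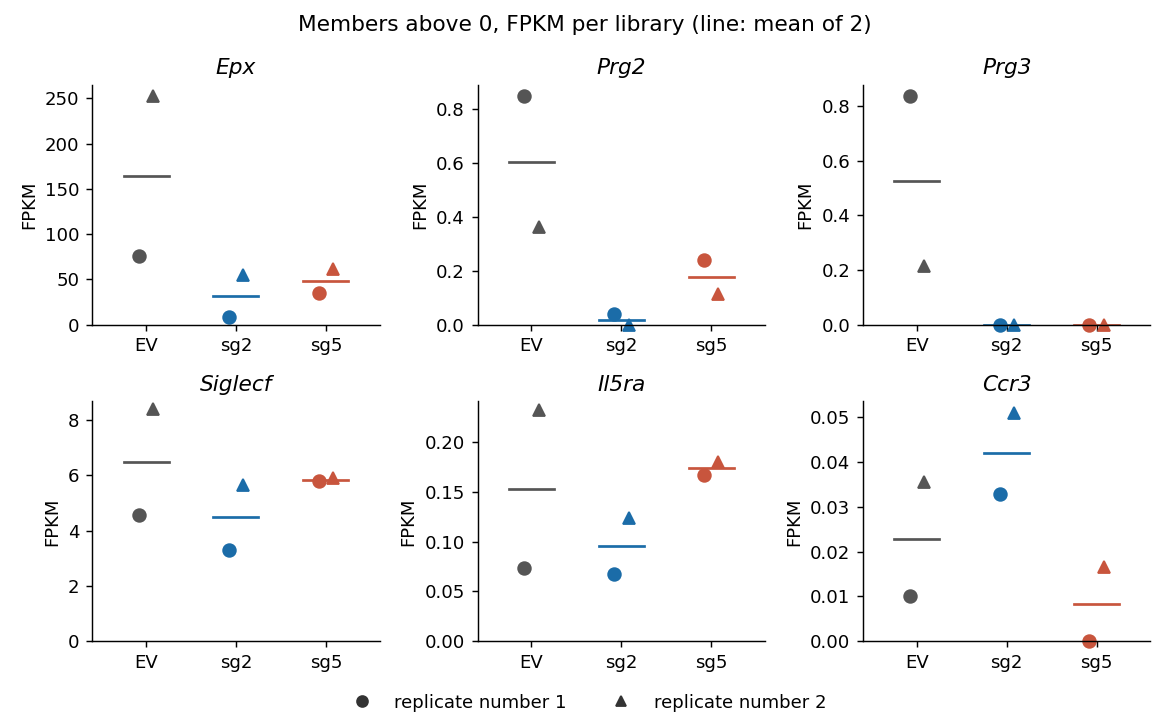
FPKM per library for the 6 genes above 0, with EV, sg2 and sg5 on the x axis, circles for replicate number 1, triangles for number 2 and a line at each group's mean. The y axes differ between panels and start at 0. Guide libraries of Epx (8.77 to 61.6 FPKM), Prg2 and Prg3 lie below both EV libraries, and those of Siglecf, Il5ra and Ccr3 overlap them.

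Epx (ENSMUSG00000052234, GRCm38 chromosome 11, 87864000 to 87875536, minus strand) encodes the peroxidase that makes hypohalous acids from hydrogen peroxide. EV replicate 1 had 75.5 FPKM and EV replicate 2 had 253 FPKM. The sg2 libraries had 8.77 (replicate 1) and 55.1 FPKM (replicate 2), and the sg5 libraries 35.1 and 61.6 FPKM. The groups did not overlap, and sg2 replicate 1 was the lowest library. By rank among genes, Epx stood 340th in EV replicate 2 and 8319th in sg2 replicate 1.

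Epx averaged 164 ± 125 FPKM over the EV libraries (SD, n = 2) and 40.1 ± 23.8 FPKM over the guide libraries (SD, n = 4), which is 24.4% of EV. When every guide library was set against its own number's EV library, Epx reached 11.6% (replicate 1) and 21.8% (replicate 2) for sg2, and 46.4% and 24.4% for sg5. The same percentages for Cebpe ranged from 18.6% to 46.2%. The log2 difference of Epx on the log2(FPKM + 1) scale was -2.06 (SE 0.86), and it was -2.03 within number 1 and -2.10 within number 2. This did not pass limma's test over all genes (adjusted p = 1.00), in which 0 of 12929 genes were called (0%) and 169 had an unadjusted p under 0.05 (1.31%). The two-sided exact permutation test of Epx gave p = 0.133, where 15 splits allow no p below 0.0667. With the replicate number as a block, limma gave an SE of 0.49 and an adjusted p of 0.646. That fit called 5 genes (0.0387%), and 739 had an unadjusted p under 0.05 (5.72%). Epx and Siglecf, the only ones of the 10 genes it tested, were not called. The size moved with single EV libraries, with a log2 difference of -1.20 without EV replicate 2 and of -2.93 without EV replicate 1. In these bulk libraries, fewer cells that transcribe a gene and less RNA per cell cannot be told apart.

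**Figure D2:**
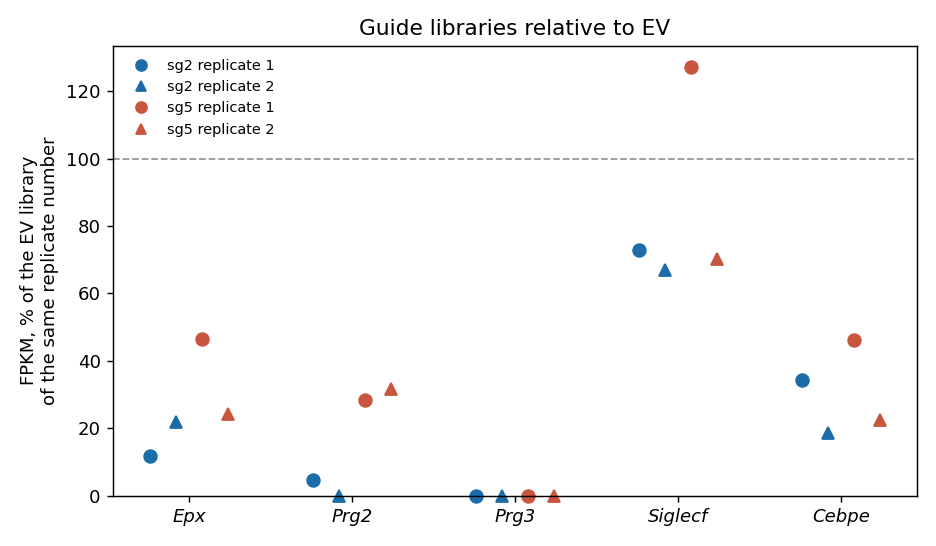
Percentage of EV in each guide library (FPKM divided by that of EV with the same replicate number), for 4 of the genes and for Cebpe. Blue is sg2, red is sg5, circles are number 1, triangles are number 2, and the dashed line marks 100%. Epx lies between 11.6% and 46.4%, the 4 Prg3 values are at 0 and Siglecf lies between 67.0% and 127%.

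By guide, the log2 difference of Epx from EV was -2.57 (SE 1.00) for sg2 and -1.55 (SE 1.00) for sg5. Neither passed limma's test (adjusted p = 1.00 for both). Over all genes, 1 was called for sg2 (0.00773%) and 0 for sg5 (0%), where 176 had an unadjusted p under 0.05. With the block these counts were 3 and 2. Both comparisons share the EV libraries. The difference between the guides themselves, sg5 minus sg2, was 1.02 (SE 1.00) and did not pass (adjusted p = 1.00 in limma), and that comparison called 0 genes (0%) and 111 at an unadjusted p under 0.05.

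**Figure D3:**
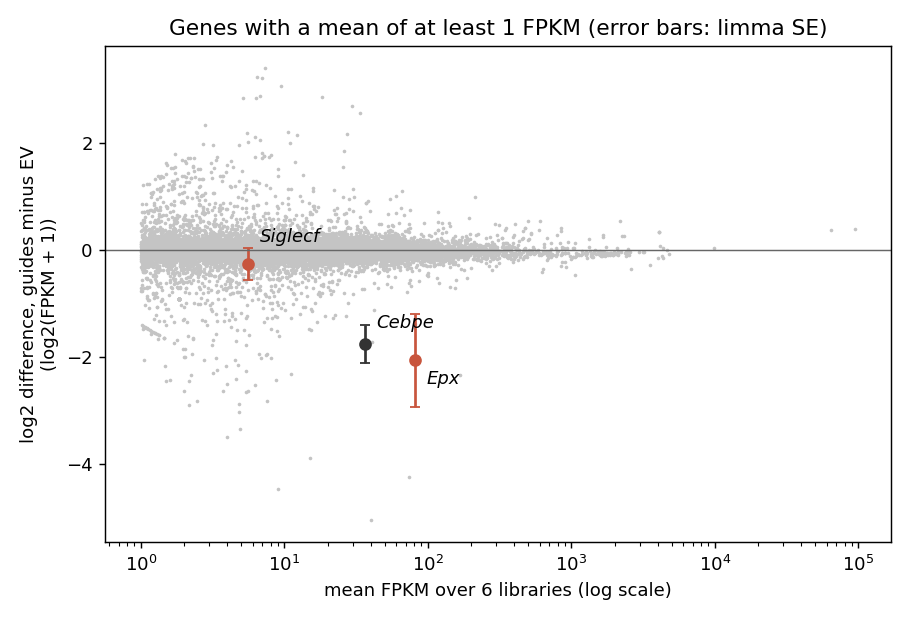
Log2 difference, guides minus EV, against the mean FPKM over the 6 libraries on a log axis, for the 12929 genes that averaged 1 FPKM or more (grey). Epx and Siglecf are in red and Cebpe in black, with limma's standard error as bars. Epx lies at -2.06 and Siglecf at -0.26.

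Prg2 (ENSMUSG00000027073, GRCm38 chromosome 2, 84980461 to 84983632) and Prg3 (ENSMUSG00000027072, chromosome 2, 84988215 to 84993886) lie 4.6 kb apart on the plus strand. Prg2 encodes major basic protein, the toxic cationic protein of the granule core, and Prg3 its homologue. Their coding sequences are 67.6% identical, with a longest shared run of 23 bases. The EV libraries, replicate 1 before replicate 2, held Prg2 at 0.848 and 0.363 FPKM. Prg2 was at 0.0386 FPKM and listed at 0 in the sg2 libraries, and at 0.240 and 0.115 FPKM in the sg5 libraries. Prg3 was at 0.835 and 0.213 FPKM in EV and was listed at 0 in all 4 guide libraries. Both genes were lower in every guide library than in either EV library, and EV replicate 1 was the highest for both.

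These are few fragments. The Prg2 values imply 17.2 and 10.4 fragments in EV, 1.0 and 0 with sg2, and 4.8 and 2.8 with sg5. The Prg3 values imply 19.9 and 7.2 fragments in EV, and 3 fragments of Prg3 are worth 0.0889 to 0.128 FPKM depending on the library, the limit that a count of 0 allows. The two-sided exact permutation test gave p = 0.0667 for each, the smallest that 15 splits allow. These splits ignored the replicate number. Both lie under the filter of the fit across genes, and with no filter limma gave an adjusted p of 1.00 for each. Counting all 10 genes, 3 (Epx, Prg2, Prg3) had every guide library below both EV libraries, 3 overlapped and 4 were at 0. Over all genes that averaged 1 FPKM or more that pattern was found in 331 (2.56%), and over genes above 0 with a lower mean in 545 (4.13%). Without EV replicate 1 the count of 3 became 5, with Siglecf and Il5ra added. The guides then need to lie below EV replicate 2 alone, an easier condition. Its share over all genes was not computed.

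Epx, Prg3 and Siglecf are shown by the 250 bases before their RefSeq start (GRCm38.p6), because all guide libraries lay below both EV libraries for Epx and Prg3 and not for Siglecf. Capitals mark matches, on either strand, to the C/EBP core TTNNGNAA, to GATAA (GATA) or to GAGGAA (PU.1).
Epx, chr11:87875537-87875786, minus strand: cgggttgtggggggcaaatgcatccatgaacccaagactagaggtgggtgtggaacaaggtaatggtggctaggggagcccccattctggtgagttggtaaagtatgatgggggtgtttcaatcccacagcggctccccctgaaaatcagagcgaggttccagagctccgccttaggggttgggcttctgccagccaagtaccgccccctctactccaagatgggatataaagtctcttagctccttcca
Prg3, chr2:84987965-84988214, plus strand: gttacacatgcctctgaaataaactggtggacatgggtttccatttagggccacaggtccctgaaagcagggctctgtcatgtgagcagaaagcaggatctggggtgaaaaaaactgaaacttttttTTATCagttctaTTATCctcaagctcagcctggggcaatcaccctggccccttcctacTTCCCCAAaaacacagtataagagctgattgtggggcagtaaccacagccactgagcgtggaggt
Siglecf, chr7:43351091-43351340, plus strand: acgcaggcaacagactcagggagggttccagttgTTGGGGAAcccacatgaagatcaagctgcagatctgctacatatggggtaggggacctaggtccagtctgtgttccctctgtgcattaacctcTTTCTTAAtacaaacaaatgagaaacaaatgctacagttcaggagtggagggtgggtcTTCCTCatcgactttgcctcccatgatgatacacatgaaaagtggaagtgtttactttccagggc
The Epx window held none of these letters. The Prg3 window held 1 C/EBP core match and 2 GATA matches, and the Siglecf window 2 C/EBP core matches and 1 PU.1 match. No motif overlapped another in these windows. Of the 10 genes 9 had a window, all but Prg2, and the C/EBP core was found in 7, GATAA in 3 and GAGGAA in 2. Those 7 include Ear1, Ear2, Ear6 and Ear10, whose windows are close duplicates, so their matches are not separate cases. Of all 32851 windows of this length, 36.8% held the C/EBP core, 22.6% GATAA and 23.3% GAGGAA.

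The ribonuclease genes Ear1, Ear2, Ear6 and Ear10 encode secreted proteins of the granule matrix and are close duplicates on chromosome 14, the chromosome of Cebpe, at 10.83, 10.61, 2.86 and 10.79 Mb from it. Their first 60 coding bases are given to show how alike the copies are, with capitals where a base differs from Ear1.
Ear1: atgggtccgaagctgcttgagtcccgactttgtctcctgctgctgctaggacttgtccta
Ear2: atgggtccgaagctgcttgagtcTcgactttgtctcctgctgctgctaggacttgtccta
Ear10: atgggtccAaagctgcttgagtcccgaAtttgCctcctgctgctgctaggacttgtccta
Ear6: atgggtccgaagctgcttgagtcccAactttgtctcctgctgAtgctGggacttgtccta
Ear2 differs from Ear1 at 1 of these bases, and Ear10 and Ear6 at 3 each. Over the coding sequence Ear1 and Ear2 are 95.7% identical, Ear2 and Ear10 97.0%, and Ear1 and Ear10 95.1%. Ear6 is 87.4% to 88.2% identical to the others. Reads from such copies can be assigned to any of them, so a value for 1 copy alone would be uncertain. Here all were listed at 0 in every library, as were all 5 Ear gene rows and 9 Ear pseudogene rows, so the sum over copies was also 0. An exact 0 in such files can be a failed estimate, and 25.8% of protein-coding genes and 1 of 80 ribosomal protein genes were also listed at 0 in all libraries. A level of 3 fragments would be 0.0961 to 0.200 FPKM for these 4 genes, depending on gene and library.

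Siglecf (ENSMUSG00000039013, GRCm38 chromosome 7, 43351341 to 43359531, plus strand) had EV values of 4.55 (replicate 1) and 8.41 FPKM (replicate 2). Its sg2 values were 3.31 and 5.64 FPKM and its sg5 values 5.78 and 5.90 FPKM. The groups overlapped, and the means were 6.48 ± 2.73 FPKM for EV (SD, n = 2) and 5.16 ± 1.24 FPKM for the guides (SD, n = 4). The log2 difference of -0.26 (SE 0.30) did not pass limma's test (adjusted p = 1.00), and without EV replicate 2 it was 0.12. The interleukin 5 receptor gene Il5ra (chromosome 6, 106710357 to 106749037, minus strand) had EV values of 0.0731 and 0.232 FPKM, sg2 values of 0.0673 and 0.124 FPKM and sg5 values of 0.167 and 0.180 FPKM. These values imply 7.8 to 35.3 fragments, the groups overlapped, and the exact permutation test gave p = 0.867. The eotaxin receptor gene Ccr3 (chromosome 9, 124021972 to 124031689, plus strand) had EV values of 0.0100 and 0.0354 FPKM, sg2 values of 0.0328 and 0.0509 FPKM and sg5 values of 0 and 0.0165 FPKM. At no more than 5.9 implied fragments, no difference was detectable at this depth for Ccr3.

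Set side by side, the guides ordered the low genes as follows. For Siglecf, Il5ra and Prg2, both sg5 libraries lay above both sg2 libraries, which was also so for 6.71% of genes that averaged 1 FPKM or more and 10.4% of lower genes above 0. For Ccr3 both sg5 libraries lay below, as for 8.94% of lower genes above 0. Cebpe was also higher in both sg5 libraries than in both sg2 libraries. For Epx the guides overlapped. The labels of sg5 replicate 2 disagree, as other fields say sg2. With that library counted as sg2, the order would be lost for Siglecf, Il5ra and Cebpe and kept for Prg2 and Ccr3. The limma test of sg5 minus sg2 for Siglecf gave 0.35 (SE 0.35, adjusted p = 1.00). Il5ra, Prg2 and Ccr3 lie under the filter, and a limma fit with no filter, which called 23 of 26126 genes (0.088%), gave 0.10 (SE 0.08), 0.21 (SE 0.16) and -0.05 (SE 0.03), with an adjusted p of 1.00 for each and of 0.891 with the block.

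Epx also differed by replicate number. Within every group Epx was higher in number 2, by 3.35-fold in EV, 6.28-fold with sg2 and 1.76-fold with sg5. The log2 difference between numbers was 1.68 (SE 0.33), with an adjusted p of 0.0163 in limma. In that comparison 20.2% of all genes tested were called higher. For Siglecf the difference was 0.47 (SE 0.17), which did not pass (adjusted p = 0.0822 in limma). Il5ra was also higher in number 2 in all 3 groups, while Prg2 was lower in number 2 in all 3, and Prg3 was lower in number 2 in EV. For Prg2 this rests on 1.0 against 0 implied fragments with sg2 and 4.8 against 2.8 with sg5. For Il5ra the step with sg5 was 1.08-fold. How many of all genes kept the same direction in all 3 groups was not counted.

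Mpo, the myeloperoxidase gene of neutrophil and monocyte granules, lies 59.6 kb from Epx and was named after its values were seen. It measured 150.5, 41.5 and 123 FPKM in the number 1 libraries of EV, sg2 and sg5, and 13.0, 12.3 and 14.8 FPKM in number 2. The coding sequences of Epx and Mpo are 72.3% identical, with a longest shared run of 26 bases. Epx was higher and Mpo lower in number 2 in all 3 groups.

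**Figure D4:**
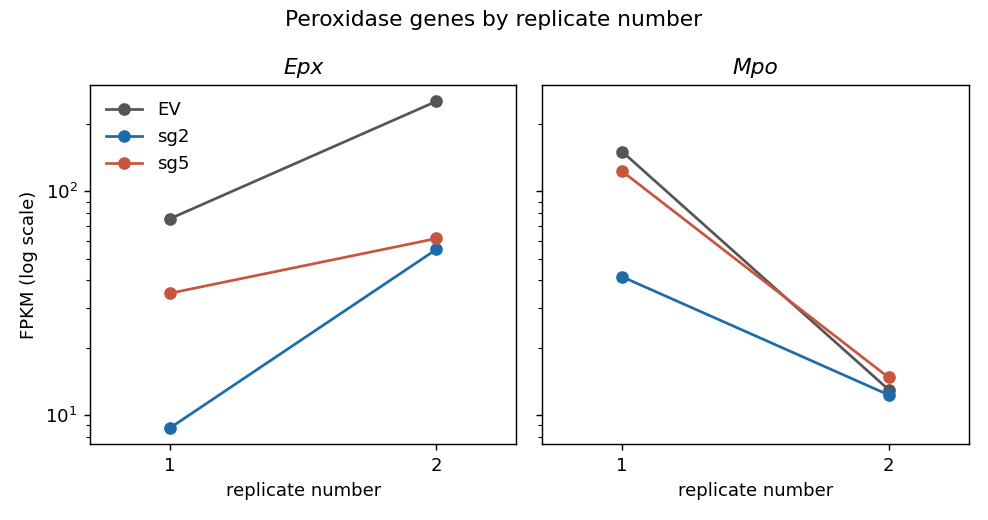
FPKM of Epx and Mpo on a shared log axis in replicate numbers 1 and 2, with 1 line for each of EV, sg2 and sg5. All Epx lines go up from number 1 to number 2 and all Mpo lines go down.

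By root mean square difference of centred log2(FPKM + 1) values over the 6 libraries, the genes most like Epx were Chil1 (0.481), Gm23762 (0.529), annotated as a miRNA, and Rab7b (0.536). Chil1, a chitinase-like protein, had EV values of 5.35 and 16.8 FPKM, sg2 values of 0.628 and 2.53 FPKM and sg5 values of 1.47 and 5.57 FPKM. The genes most like Siglecf were Prdx5 (0.0920), Gm20400 (0.0928) and Pdzd2 (0.101). Epx had no match as close as those of Siglecf, and Gm23762 was at 0 and 7.42 FPKM in the sg2 libraries. All these likenesses are descriptions over 6 libraries of 1 series.

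Other genes of eosinophil surface and lipid mediators had values on both sides of 0. Of 17 tested, 7 had a negative and 10 a positive log2 difference, with a median of 0.03, and 0 were called by limma with or without the block. Over all genes tested the median was -0.005 and 51.3% were negative. The 4 of smallest p were Ltb4r1, Adgre1, Hrh4 and Il3ra. Ltb4r1, a leukotriene B4 receptor, had a log2 difference of -1.03 (SE 0.45), and Adgre1, the F4/80 antigen, of -0.29 (SE 0.19). Il3ra, the interleukin 3 receptor alpha chain, had 0.31 (SE 0.22), and Hrh4, a histamine receptor, 0.34 (SE 0.24). Their adjusted p was 1.00 in limma.

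Of 17 transcription factors tested, 8 were negative and 9 positive, with a median of 0.01 and 0 called with or without the block. All guide libraries lay below both EV libraries for 3, Cebpe itself among them (2.56% of all genes tested did), and above for 2 (2.54%). Gfi1, a repressor that acts in granulocytes, had -0.75 (SE 0.14) and Cebpe -1.75 (SE 0.36). Ikzf1, a lymphoid and myeloid regulator, had -0.61 (SE 0.32) and Stat5b, a transducer of cytokine signals, 0.22 (SE 0.12). The following regulators that set up eosinophils were named after their values were seen. Gata2 measured between 384 and 585 FPKM and Cebpa between 32.2 and 216 FPKM over the 6 libraries, and for both the groups overlapped. Gata1, 1 of the 2 above, had 0.668 and 1.17 FPKM in EV and 1.25 to 1.79 FPKM with guides. Spi1, the PU.1 gene and 1 of the 3 below, had 136.7 and 135.4 FPKM in EV and 103.4 to 129.3 FPKM with guides.

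Marker lists of other cell types are given beside these values, and their part in the results was not tested. They were chosen with earlier results of these data known, so shares over all genes beside them are description only. In the fit without the block, 0 genes of any marker list were called by limma. Of 11 neutrophil markers tested, 8 were negative and 3 positive, with a median of -0.51, and 5 had all guide libraries below both EV libraries, against 2.56% of all genes tested. S100a9, a calcium-binding neutrophil protein, had EV values of 129.9 and 98.4 FPKM and guide values of 1.07 to 3.98 FPKM. S100a8, its partner, had a log2 difference of -3.89 (SE 0.34), Ltf, lactoferrin, of -2.16 (SE 0.42) and Ngp, a granule protein, of -4.25 (SE 1.08). With S100a9, these were the markers of smallest p in the list. The 3 positive markers, named outside that rule, were Cxcr2 (0.33), Ctsg (0.32) and Prtn3 (0.02). The summed level of the 16 neutrophil markers was 960.1 and 1050 FPKM in EV and 475 to 748 FPKM with guides, with Retnlg at 0. With the block, which called 0.0387% of all genes, 2 of these genes fell (S100a9 and Ltf, adjusted p = 0.0445 and 0.0310 in limma), and without it S100a9 had an adjusted p of 0.0811.

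The mast cell and basophil list had mostly positive differences. Of 8 tested, 7 were positive and 1 negative, with a median of 0.54, and 0 were called. The list's summed level was 1187 and 2666 FPKM in EV and 1876 to 3188 FPKM with guides, mostly Fcer1a, the IgE receptor alpha chain (1081 to 2767 FPKM), with Kit, Mcpt1 and Mcpt4 at 0. Il4, a cytokine gene, had a log2 difference of 1.02 (SE 0.17, adjusted p = 0.639 in limma). Ms4a2, the IgE receptor beta chain, had 0.39 (SE 0.20), Fcer1a 0.54 (SE 0.36) and Cpa3, a mast cell protease, 0.60 (SE 0.54). Without EV replicate 1 the last pair were at -0.041 and -0.11. Of the remaining lists, 6 of 6 erythroid and megakaryocyte markers and 2 of 2 monocyte markers tested were positive and 2 of 2 lymphoid markers negative, with 0 called. The medians were small, at 0.14, 0.14 and -0.13, and 51.3% of all genes tested were negative. The erythroid median was 0.25 within number 1 and 0.02 within number 2, and some genes of each list changed sign between the numbers. The summed levels of these lists over the 6 libraries were 162 to 238, 4.14 to 9.68 and 6.47 to 10.7 FPKM.

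**Figure D5:**
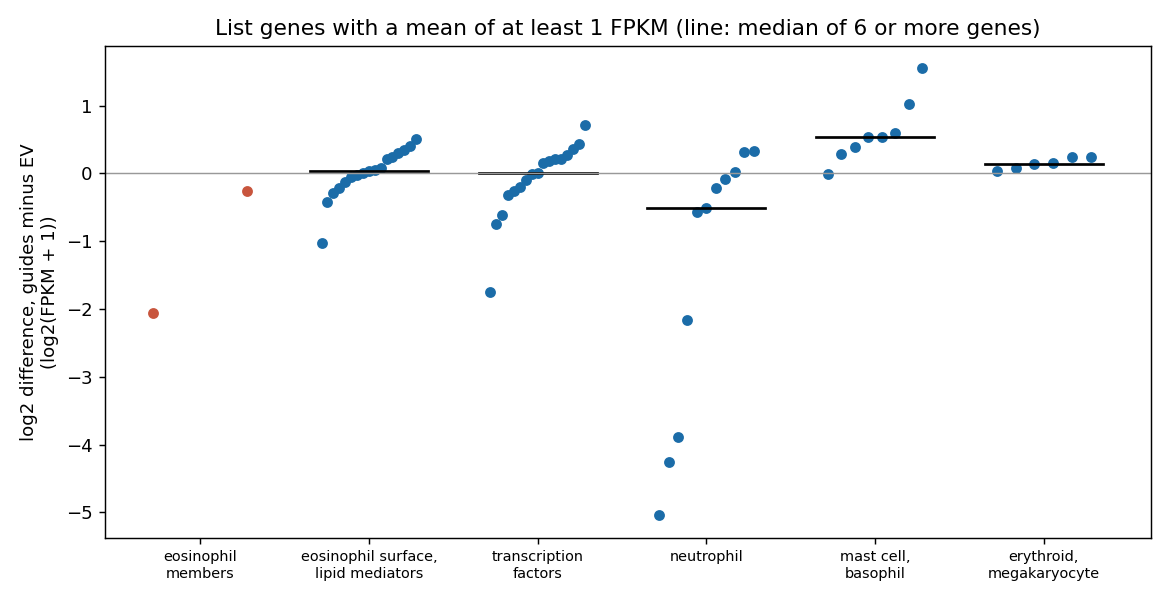
Log2 difference, guides minus EV, for each list gene that averaged 1 FPKM or more, with the list on the x axis and a line at the median of lists of 6 or more genes. The eosinophil points are Epx (-2.06) and Siglecf (-0.26), the neutrophil median is -0.51 and the mast cell and basophil median 0.54.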

How the data were processed

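RNA of 6 libraries was measured, and the authors deposited 1 table of FPKM values per library. Tools named, per the submitters' processing notes, are DESeq2 and kallisto 0.43.0, with builds mm10 and GRCm38. No source says which step made the FPKM values. Gene positions were taken by gene ID (47187 matched) from GENCODE M21 on GRCm38, and promoter windows from RefSeq.

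Values were taken as log2(FPKM + 1), which understates changes of low genes. Of 26126 genes above 0, the 12929 that averaged 1 FPKM or more were tested with limma 3.58.1 (R 4.3.3, intensity trend, Benjamini-Hochberg, threshold 0.05), after tests on simulated data. sg2 and sg5 were tested together and apart against EV, and single genes by an exact permutation test over 15 splits. The permutation test ignored the replicate number, so it did not use the pairing described below. Count models were not run, since the files hold no counts.

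Fragments and depth were inferred from 752 transcripts over 4000 nt, assuming 200 nt fragments. Between 92.6% and 98.1% of low values were whole within 0.15 fragments, and floors of 3 fragments cover counting error only.

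The first principal component held 55.8% of the variance. The change from replicate 1 to 2 was correlated between groups across genes. The correlations were 0.611 between EV and sg2, 0.591 between EV and sg5 and 0.583 between the guides. The numbers were therefore treated as pairing, from the data and not the labels, and a fit with the replicate block stands beside the results it changes.

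The 10 genes and all lists were chosen with earlier results of these data known. Besides the 10 genes and Cebpe, the text names at most 4 genes of each other list, those of smallest p (the erythroid, monocyte and lymphoid lists by counts only) and the 3 profiles nearest to each of the 10 with a mean of at least 5 FPKM. Other names are said to be outside that rule. Alternatives were another pseudocount, no filter, median-of-ratios scaling, each library left out, the second sg5 library as sg2, and no filter with the block, the last chosen after seeing the data. Computations used Python 3.11.15, numpy 2.4.6, pandas 2.3.3, matplotlib 3.10.9 and Biopython 1.88.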

Additional observations from a re-analysis of the deposited data

Results flagged for a closer look

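Siglecf had its lowest guide value, 3.31 FPKM in sg2 replicate 1, far below the other guide libraries (5.64 to 5.90 FPKM). Il4 likewise had its lowest guide value, 12.8 FPKM, in sg2 replicate 1, against 16.4 to 17.1 FPKM in the others. Both gaps passed Dixon's 95% limit for 4 values, among 31 genes checked, and chance gives such a flag in about 1 of 20 groups.

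Ccr3 lay above the EV library of the same number in both sg2 libraries (by 0.0228 and 0.0155 FPKM) and below it in both sg5 libraries (differences of -0.0100 and -0.0190 FPKM). In the limma fit with no filter, the log2 difference of sg5 minus sg2 was -0.05 (SE 0.03) and did not pass (adjusted p = 1.00, and 0.891 with the block). The values rest on at most 5.9 implied fragments, and sg5 replicate 2 is the library whose labels disagree.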

How the results depend on the processing

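Of 32 single-gene log2 differences between guides and EV, 23 kept their sign in every alternative run, Epx among them (-2.93 to -1.20). With 1 library left out, the sign turned for Siglecf (-0.64 to 0.12), Gm20400 (-0.62 to 0.013), Pdzd2 (-0.71 to 0.030), Fcer1a (-0.041 to 1.12), Cpa3 (-0.11 to 1.31), Mpo (-2.22 to 1.21) and Cebpa (-0.31 to 1.73), each without an EV library, and for Mpo also within number 2 (0.048). Il5ra and Ccr3, near 0, also changed sign. At a pseudocount of 0.1, the log2 differences of Prg2 and Prg3 were -1.89 and -2.44, against -0.54 and -0.58, because low values are compressed less.

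Counts of genes called also moved. For guides against EV, 0 became 5 with the replicate block, 6 with no filter and 5 with no filter and the block, and leaving out 1 library gave 0 to 1. For sg2 against EV, 1 became 3 with the replicate block, 0 with no filter, 0 with no filter and the block, 0 with the second sg5 library counted as sg2, and 0 to 0 with 1 library left out. For sg5 against EV, 0 became 2 with the block and 18 with no filter, and for sg5 against sg2, 0 became 23 with no filter. For number 2 against 1, 6089 became 3205 to 4365 with 1 library left out. The count of 3 genes below EV became 3 to 5 with 1 library left out, where the share over all genes was not computed. The cause was not tested. Depth limits Prg2, Prg3, Il5ra and Ccr3, which rest on at most 35.3 implied fragments.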

Other observations

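The following genes lie within 100 kb of Epx or Prg2 and were named after their values were seen. Guide and EV values overlapped for each. Mks1, 0.2 kb from Epx, had EV values of 8.04 and 12.4 FPKM, sg2 values of 8.23 and 12.1 FPKM and sg5 values of 8.74 and 11.9 FPKM. Slc43a3, 22.0 kb from Prg2, had EV values of 30.1 and 33.4 FPKM and guide values of 30.1 to 32.3 FPKM. Lpo, the lactoperoxidase gene 35.7 kb from Epx, reached at most 0.115 FPKM.

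The other Ear and ribonuclease A genes held 7 rows, of which 3 (Ear14, Rnase2a, Rnase2b) were listed at 0 in all libraries and 0 reached a mean of 1 FPKM. Summed, they reached 0.162 and 1.41 FPKM in the EV libraries, 2.26 and 2.36 in the sg2 libraries and 0.639 and 0.898 in the sg5 libraries. Most of the sg2 sum was Rnase6, named after its values were seen, at 1.71 and 1.27 FPKM. Rnase6 had 0.0695 and 0.269 FPKM in EV and 0.142 and 0.113 FPKM with sg5.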
